A study of Mus musculus with 6 samples.

Results

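The nuclear genes of the mitochondrial respiratory chain were followed in mouse back skin after cyclosporin A. Members were all probes whose accession maps to a nuclear gene with a symbol beginning with Nduf, Uqcr, Atp5, Cox4, Cox5, Cox6, Cox7 or Cox8, or to Sdha, Sdhb, Sdhc, Sdhd, Cycs or Cyc1. The rule uses names alone and no measured value. It found 112 of 41174 probes and 89 of the 16391 genes with a symbol on the array. Of these genes 86 passed the filter on dim probes and were tested among 22754 genes in all. Cox4i2, Cox7b2 and Cox8c did not pass it, and 9 protein-coding genes that fit the rule in the RefSeq table had no probe by accession.

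The respiratory chain passes electrons from NADH through complex I, or from succinate through complex II, to complex III, then by cytochrome c to complex IV, where oxygen is reduced. Complexes I, III and IV pump protons across the inner mitochondrial membrane, and complex V, the ATP synthase, uses the gradient to make ATP. In rodents, complex IV carries the subunit isoforms Cox6a2, Cox7a1 and Cox8b in skeletal muscle and heart, and Cox6a1, Cox7a2 and Cox8a in most other tissues.

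On each of 6 dual-colour Agilent arrays the Cy5 channel held a cyclosporin A sample and the Cy3 channel an ethanol sample, and dyes were not swapped. The groups are back skin of C57/BL mice 2, 4 or 7 days after cyclosporin A, an immunosuppressant that inhibits the phosphatase calcineurin through cyclophilins, and back skin of the same strain 2, 4 or 7 days after ethanol, with 2 arrays per day. Replicates are labelled as biological, but the age, sex and number of animals, the dose and whether animals were pooled are not given in the sources used here, so p-values cover the spread between samples, which may be technical. Days 2 and 4 lay on 1 slide and day 7 on another, so that slide and day 7 cannot be told apart, and neither can treatment and any dye bias of a single gene.

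All values are on the log2 scale, as cyclosporin A over ethanol after loess normalization within each array, so a value above 0 means higher in cyclosporin A. The test was limma's moderated t on all genes, with 1 mean per day, the average of the 3 day means, and the differences between days. A gene was called where its Benjamini-Hochberg adjusted p over all genes was under 0.05. Standard errors (SE) are the moderated ones, with 2 arrays behind a day and 6 behind an average. The epidermal keratins Krt5, Krt14, Krt1 and Krt10 exceeded background clearly on all 6 arrays with either dye, so epidermis was present as labelled. Skeletal muscle markers were present as well, and in bulk tissue fewer cells of a type and less RNA per cell cannot be told apart. Of the 86 members, 85 were well above background in both channels of all 6 arrays and 0 were saturated. Ndufaf7, an assembly factor, missed background in the ethanol channel of 1 array. The median member stood at a mean log2 intensity of 13.6, against 8.61 for the median of all genes tested, so the members are bright genes.

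Respiratory chain transcripts lay slightly above 0 as a group in cyclosporin A skin, and in the average over days 14 members were called higher and 1 lower. Without Atp5b and Ndufv3, whose other probes lie below 0, 12 members rose. With the mean of all kept probes standing for a gene, 12 were called higher and 1 lower, and 12 of these 13 were among the 15 called with the brightest probe. The median member ratio was 0.18 and 0.011 on the arrays of day 2, 0.14 and 0.30 at day 4, and 0.13 and 0.24 at day 7. The median of all genes was 0.020 and 0.049 at day 2, 0.028 and 0.049 at day 4, and 0.063 and 0.014 at day 7. The member median was therefore above that of all genes on 5 of 6 arrays, and below it on the second array of day 2. Between 45 of 85 (52.9%) and 77 of 86 (89.5%) measured members lay above 0 on an array, against 51.9% to 57.7% of all genes. On the second array of day 2 the share of members, 52.9%, was below the 57.7% of all genes. Ratios here and below are after loess; under median centring, described last, 86 of 86 members averaged above 0. In the average over days 72 of 86 members were above 0 (83.7%, against 56.5% of all genes), at a median of 0.19, against a median of 0.033 over all genes.

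In the average, 15 of 86 members were called (17.4%), against 13.1% of all genes tested. Higher calls made up 16.3% of the members, against 9.68% of all genes. Lower calls made up 1.16% of the members, against 3.4% of all genes. The share called is thus near that of the background. At an unadjusted p under 0.05, 36 members passed (41.9%), against 32.5% of all genes. The calls were fragile: between 0 and 9 members were called when 1 array was left out, with 0 without either array of day 4, 1 without the first array of day 7, 2 without the first array of day 2, 3 without the second array of day 7 and 9 without the second array of day 2.

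**Figure D1:**
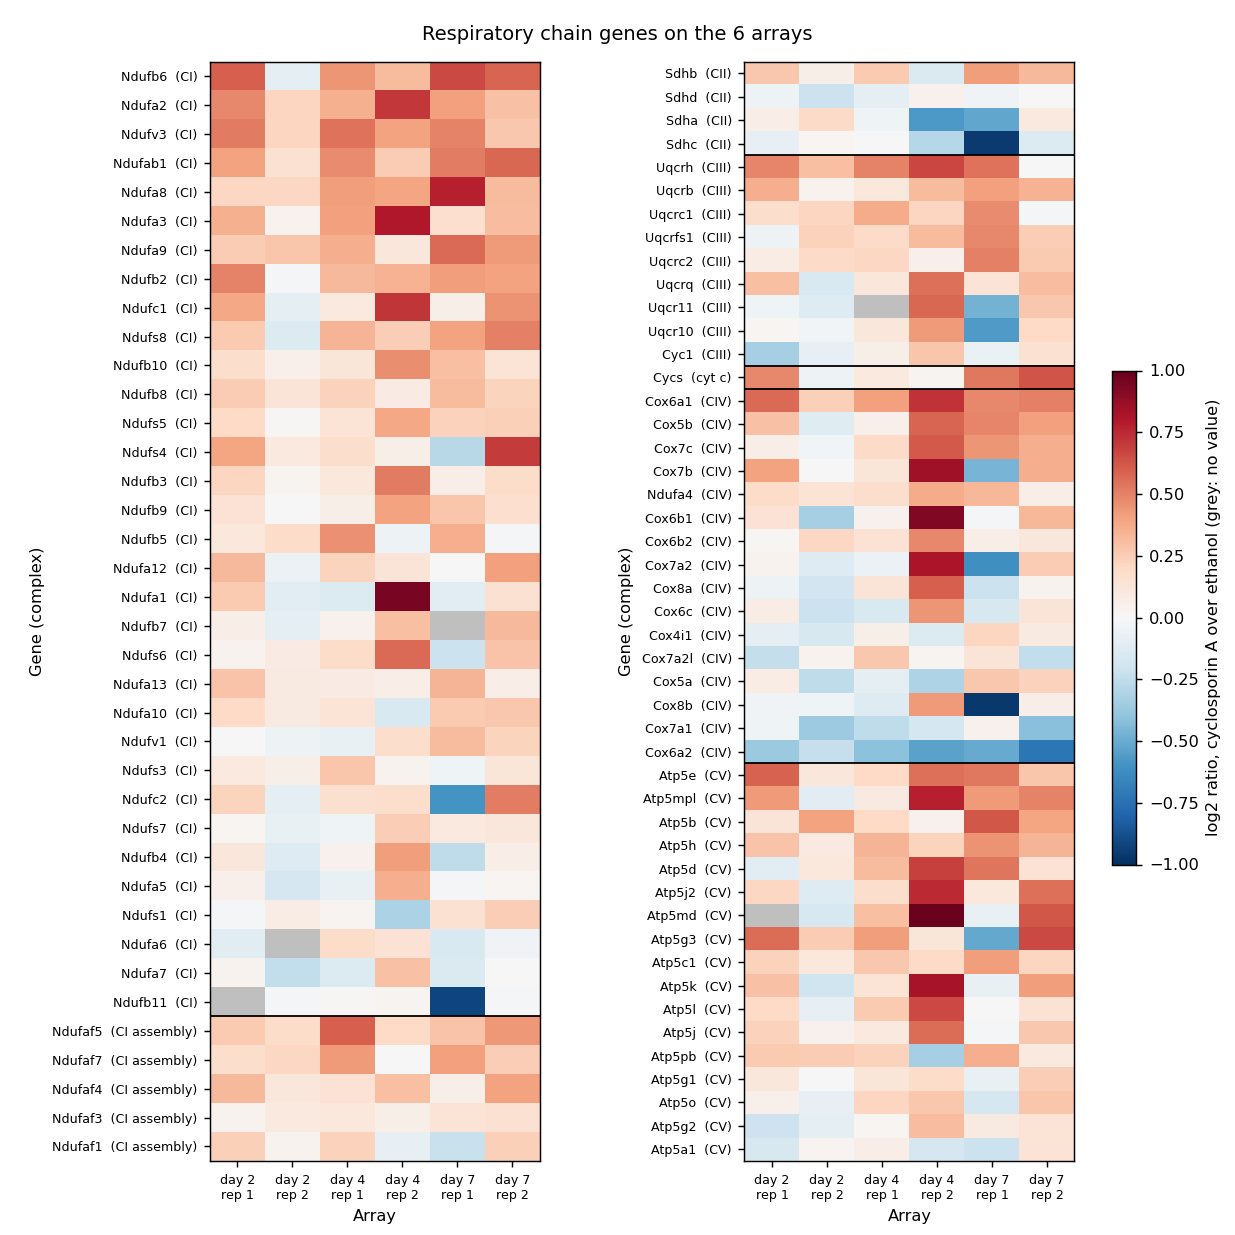
Each cell is the log2 ratio of cyclosporin A over ethanol of 1 gene (85 of the 86 members, down the page, grouped by complex and ordered by average ratio) on 1 array (across). Red is above 0, blue below 0, grey has no value, and colours end at 1 and -1. Under this loess normalization Cox6a2 is blue on all 6 arrays, while Cox6a1 is red on all 6, and the second array of day 4 and the first of day 7 hold the strongest colours.

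Single days gave 1 call among the members on their brightest probes. At day 2, limma called 0 of 86 members and 0% of all genes, and 5 members (5.81%) had an unadjusted p under 0.05, against 9.67% of all genes. At day 4 it called 0 members, against 0.00439% of all genes, with 17 members (19.8%) at an unadjusted p under 0.05, against 15% of all genes. At day 7 it called 1 member, Cox6a2, lower (1.16% of the members, against 2.99% of all genes in either direction and 0.637% lower), and 0 members higher, against 2.36% of all genes. At day 7, 25 members (29.1%) had an unadjusted p under 0.05, against 22.1% of all genes. No member was called between days by limma, against 0% of all genes for day 4 minus day 2, 0.264% for day 7 minus day 2 and 0.202% for day 7 minus day 4. The numbers of members with an unadjusted p under 0.05 were 0, 0 and 2 in these comparisons, against 2.24%, 6.14% and 4.47% of all genes. The 2 were Cox5a and Cycs, singled out after their values were seen, both with an adjusted p of 0.935 for day 7 minus day 4.

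Arrays of a day differed among the members. The median absolute difference between both arrays of a day was 0.19 at day 2 over 83 members, 0.29 at day 4 over 85 and 0.23 at day 7 over 85. A difference of over 0.5 was found for 4, 15 and 14 members at days 2, 4 and 7. Opposite signs on both arrays of a day were found for 33, 19 and 33 members. The SD of the ratios over members was 0.35 on the second array of day 4 and 0.40 on the first array of day 7, against 0.16 to 0.23 on the other arrays. Of the 81 members measured on all arrays, 24 were above 0 on 6 of 6 and 1, Cox6a2, was below 0 on 6 of 6. The matching shares over all genes were not counted, so these counts do not set the members apart.

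Promoter sequence is shown for 6 members to set the called genes beside members that were not. RefSeq promoters (GRCm38.p6) were matched by symbol for 72 of the 86 genes, with 77 promoters, and the 250 bases before each start were searched on both strands. The motifs were GCGCANGCG for NRF1 and CCGGAAG for ETS factors such as GABP, both known regulators of respiratory chain genes, and TCAAGGTCA for estrogen-related receptors (ERR). The NRF1 and ETS letters do not overlap each other in the sequences printed. Cox6a1 and Atp5h rose in the average and hold both, and Uqcrh rose and holds the ETS letters alone. Other members called higher, Atp5b, Ndufa3, Ndufa9, Ndufab1, Ndufaf5, Ndufb2 and Ndufv3, hold none of the 3 motifs and are not shown. Sdhd, a subunit of complex II, was not called and holds both as well. Cox7a1 and Cox8b, the muscle isoforms with an entry in the table, hold none of the 3 motifs. Capitals mark the motif letters, on either strand, and each sequence runs 5′ to 3′ on the strand of its gene and ends at the base before the start. The Cox6a1 promoter is chr5:115348959-115349208 (minus strand), Atp5h chr11:115419920-115420169 (minus strand), Uqcrh chr4:116075071-116075320 (minus strand), Sdhd chr9:50603850-50604099 (minus strand), Cox7a1 chr7:30183921-30184170 (plus strand) and Cox8b chr7:140900447-140900696 (minus strand).
Cox6a1: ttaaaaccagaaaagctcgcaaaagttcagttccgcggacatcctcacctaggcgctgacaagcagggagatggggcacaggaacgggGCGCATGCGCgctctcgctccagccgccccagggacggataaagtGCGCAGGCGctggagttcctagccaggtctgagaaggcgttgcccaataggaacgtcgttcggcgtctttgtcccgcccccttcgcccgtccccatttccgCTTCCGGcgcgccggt
Atp5h: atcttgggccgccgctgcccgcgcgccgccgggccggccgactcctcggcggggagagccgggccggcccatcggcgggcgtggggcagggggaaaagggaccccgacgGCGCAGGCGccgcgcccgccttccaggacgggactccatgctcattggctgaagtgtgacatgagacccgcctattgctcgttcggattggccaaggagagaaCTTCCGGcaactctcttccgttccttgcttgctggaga
Uqcrh: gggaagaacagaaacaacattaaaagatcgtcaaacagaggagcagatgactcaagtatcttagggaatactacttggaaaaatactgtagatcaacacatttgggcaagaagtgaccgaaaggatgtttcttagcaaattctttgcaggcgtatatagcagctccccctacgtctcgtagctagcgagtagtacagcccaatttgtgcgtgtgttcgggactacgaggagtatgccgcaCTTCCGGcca
Sdhd: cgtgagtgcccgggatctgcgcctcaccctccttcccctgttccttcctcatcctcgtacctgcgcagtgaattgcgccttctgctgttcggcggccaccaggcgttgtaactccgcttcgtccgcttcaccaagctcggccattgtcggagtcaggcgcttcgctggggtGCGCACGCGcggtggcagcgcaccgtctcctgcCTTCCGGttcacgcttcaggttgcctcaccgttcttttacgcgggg
Cox7a1: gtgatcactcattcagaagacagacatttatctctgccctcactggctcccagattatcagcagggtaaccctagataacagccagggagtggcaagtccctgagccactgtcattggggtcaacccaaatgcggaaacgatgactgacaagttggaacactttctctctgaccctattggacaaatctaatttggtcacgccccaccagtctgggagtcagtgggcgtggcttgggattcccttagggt
Cox8b: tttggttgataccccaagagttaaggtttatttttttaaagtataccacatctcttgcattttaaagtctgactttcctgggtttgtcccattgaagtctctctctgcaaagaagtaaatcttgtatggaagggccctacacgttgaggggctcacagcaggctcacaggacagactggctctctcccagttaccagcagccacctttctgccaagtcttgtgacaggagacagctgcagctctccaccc

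In Cox6a1 the NRF1 letters begin 162 and 161 bases before the start, overlapping on opposite strands, and again 117 bases before it, and the ETS letters 16 bases before it. In Atp5h the NRF1 letters begin 141 and the ETS letters 38 bases before the start. In Sdhd they begin 79 and 46 bases before it, and in Uqcrh the ETS letters begin 10 bases before it. Of the 77 member promoters, 16 held the NRF1 letters (20.8%), against 7.08% of 21263 promoters of protein-coding genes. The ETS letters stood in 13 (16.9%), against 8.98%, and the ERR letters in 1 (1.3%), against 0.32%. Among the 13 promoters of members called higher, 5 held the ETS letters (38.5%), those of Atp5e, Atp5h, Cox6a1, Ndufb6 and Uqcrh, and 3 held the NRF1 letters (23.1%). Among the 64 promoters of the other members, 8 held the ETS letters (12.5%) and 13 the NRF1 letters (20.3%). The NRF1 counts depend on the form searched, and the form printed and the promoters shown were chosen after hits of 2 other forms had been seen. The full NRF1 consensus stood in 4 of the 77 member promoters (5.19%), against 1.42% of all, in 0 of the 13 of members called higher and in 4 of the 64 others (6.25%); of the 6 promoters shown, that of Sdhd holds it. A form 1 base longer than the one printed stood in 14 of 77 (18.2%), against 5.18% of all, in 3 of 13 (23.1%) and in 11 of 64 (17.2%). These counts describe letters in a window, and were not tested.

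Complex I, the NADH dehydrogenase and the largest group of members, had 8 of 34 tested genes called higher (7 without Ndufv3) and 0 lower in the average. The 8 are 23.5%, against 9.68% of all genes called higher. With 1 array left out, complex I had 0 to 5 genes called higher and 0 to 1 lower. Its median ratio was 0.21 and 0.011 at day 2, 0.15 and 0.27 at day 4, and 0.17 and 0.24 at day 7, above 0 on 6 of 6 arrays (mean 0.17 ± 0.092, SD over 6 arrays). The genes that rose encode accessory subunits, which surround the catalytic core without taking part in electron transfer. Ndufb6, in the membrane arm, had 0.60 and -0.089 at day 2, 0.44 and 0.32 at day 4, and 0.66 and 0.58 at day 7. It averaged 0.42 (SE 0.10, fold 1.34, adjusted p = 0.0404) and lay below 0 only on the second array of day 2. Ndufa2, in the peripheral arm, had 0.48 and 0.22 at day 2, 0.35 and 0.71 at day 4, and 0.41 and 0.29 at day 7. Its average was 0.41 (SE 0.079, fold 1.33, adjusted p = 0.0254), with every array above 0.

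Ndufab1, the mitochondrial acyl carrier protein that is also a subunit of complex I, had 0.40 and 0.16 at day 2, 0.47 and 0.25 at day 4, and 0.51 and 0.57 at day 7, averaging 0.39 (SE 0.071, fold 1.31, adjusted p = 0.0218). On this probe, the brightest, all 6 arrays lay above 0 and those of day 7 were among the higher values. The other kept probe of Ndufab1 averaged 0.61 (adjusted p = 0.0113 when each probe was tested alone). At day 7 that probe stood at 0.95 and was called (adjusted p = 0.0202 when each probe was tested alone). Ndufa8, an accessory subunit with cysteine-rich motifs, had 0.21 and 0.21 at day 2, 0.42 and 0.39 at day 4, and 0.78 and 0.32 at day 7, averaging 0.39 (SE 0.080, fold 1.31, adjusted p = 0.0293). Its highest value came from the first array of day 7. Ndufa9, an accessory subunit of the peripheral arm, had 0.25 and 0.28 at day 2, 0.36 and 0.12 at day 4, and 0.57 and 0.43 at day 7, averaging 0.33 (SE 0.068, fold 1.26, adjusted p = 0.0288). Ndufa3, a membrane-bound accessory subunit, had 0.36 and 0.033 at day 2, 0.41 and 0.80 at day 4, and 0.17 and 0.31 at day 7, averaging 0.35 (SE 0.084, fold 1.27, adjusted p = 0.0433). The second array of day 4 was the highest for Ndufa3 and the lowest for Ndufa9, and both genes lay above 0 throughout. Ndufb2, in the membrane arm, had 0.49 and -0.020 at day 2, 0.32 and 0.35 at day 4, and 0.42 and 0.40 at day 7, averaging 0.33 (SE 0.083, fold 1.25, adjusted p = 0.0484).

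Ndufv3, a small accessory subunit of the NADH-binding module, had 0.52 and 0.22 at day 2, 0.54 and 0.40 at day 4, and 0.49 and 0.27 at day 7, and its brightest probe averaged 0.41 (SE 0.075, fold 1.33, adjusted p = 0.0234). Its other 2 kept probes averaged -0.098 and -0.21 and were not called when each probe was tested alone (adjusted p = 0.322 and 0.0754), so the direction for Ndufv3 rests on the probe.

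Of the 5 complex I assembly factors of the Ndufaf family, 1 rose and 5 lay above 0 in the average, with a mean of the array medians of 0.17 ± 0.078 (SD over 6 arrays). The 1 call (20%, against 9.68% of all genes) was lost with any 1 array left out. Ndufaf5, which modifies the subunit Ndufs7 during assembly, had 0.26 and 0.18 at day 2, 0.60 and 0.20 at day 4, and 0.29 and 0.43 at day 7, averaging 0.33 (SE 0.078, fold 1.25, adjusted p = 0.0411). Ndufaf1, needed to build the membrane arm, had the lowest average of the group, 0.073 (SE 0.090, adjusted p = 0.617), from 0.24 and 0.036 at day 2, 0.23 and -0.084 at day 4, and -0.22 and 0.24 at day 7. The arrays of day 4 and of day 7 stood on either side of 0 for Ndufaf1.

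Complex II, succinate dehydrogenase, which also works in the citric acid cycle, had the lowest median of the complexes, with 0 of 4 genes called and a mean that turned to 0.59 under median centring. The median of its 4 gene averages was -0.095, against 0.0021 on processed signals and on deposited ratios and -0.0405 without the first array of day 7. At day 7 it was -0.12, against 0.044 on processed signals and on deposited ratios and 0.048 without that array. Its median was 0.0074 and 0.038 at day 2, -0.017 and -0.22 at day 4, and -0.28 and 0.048 at day 7 (mean -0.070 ± 0.14, SD over 6 arrays). It was below the medians of complexes I, III, IV and V on 5 of 6 arrays each, the second array of day 2 being the exception. The mean difference from complex I was -0.24 ± 0.19 and from complex V -0.25 ± 0.18 (SD over 6 arrays). With 4 genes this is a description and was not tested.

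Sdha, the flavoprotein that binds succinate, had 0.069 and 0.19 at day 2, -0.042 and -0.57 at day 4, and -0.52 and 0.10 at day 7, averaging -0.13 (SE 0.11, adjusted p = 0.455). On this probe, the brightest, both arrays of day 2 were above 0 and both of day 4 below it. The other kept probe of Sdha had 0.018 and -0.36 at day 2 and -0.023 and -0.83 at day 4. That probe averaged -0.20 (adjusted p = 0.284 when each probe was tested alone). Sdhb, the iron-sulfur subunit, had 0.27 and 0.057 at day 2, 0.26 and -0.15 at day 4, and 0.42 and 0.33 at day 7, averaging 0.20 (SE 0.080, adjusted p = 0.141), the highest of the 4. The membrane anchor Sdhc had -0.084 and 0.020 at day 2, 0.0072 and -0.29 at day 4, and -0.96 and -0.13 at day 7, averaging -0.24 (SE 0.12, adjusted p = 0.202), and its lowest value came from the first array of day 7. Its partner anchor Sdhd lay between -0.21 and 0.040 on the 6 arrays and averaged -0.060 (SE 0.065, adjusted p = 0.563).

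**Figure D2:**
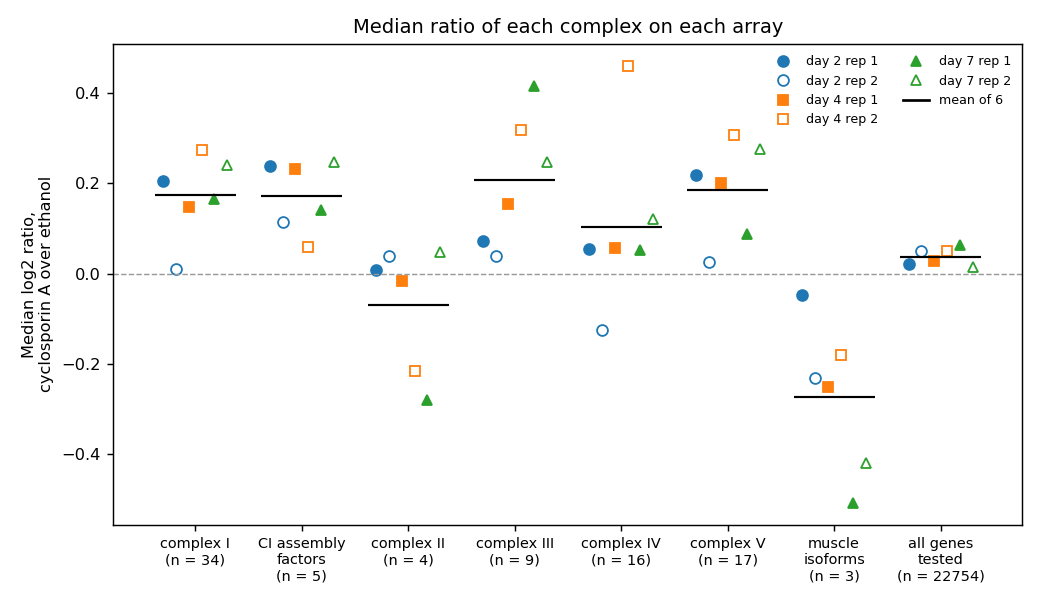
Points are the median log2 ratio (vertical axis) of the tested genes of each group (horizontal axis, with the number of genes) on 1 array, and black lines are means of 6 arrays. Complexes I, III and V have means between 0.17 and 0.21, complex II has a mean of -0.070 and the 3 muscle isoforms of -0.27, against 0.037 for all genes tested (under median centring complex II has 0.59).

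Complex III, which hands electrons from ubiquinol to cytochrome c, had 1 of 9 genes higher (11.1%, near the 9.68% of all genes) and 9 of 9 above 0 in the average. Its median was 0.071 and 0.038 at day 2, 0.15 and 0.32 at day 4, and 0.41 and 0.25 at day 7 (mean 0.21 ± 0.15, SD over 6 arrays). Uqcrh, the acidic hinge protein that helps dock cytochrome c, had 0.49 and 0.30 at day 2, 0.50 and 0.67 at day 4, and 0.55 and 0.0010 at day 7, averaging 0.42 (SE 0.090, fold 1.33, adjusted p = 0.0322). On this probe, the brightest, only the second array of day 7 lay near 0. The other kept probe of Uqcrh averaged 0.16 (adjusted p = 0.199 when each probe was tested alone), with -0.35 and 0.057 at day 7, and was not called. Cyc1, the cytochrome c1 heme protein, had the lowest average of the complex, 0.0010 (SE 0.075, adjusted p = 0.994). Its values were -0.33 and -0.080 at day 2, 0.061 and 0.28 at day 4, and -0.070 and 0.15 at day 7, below 0 on both arrays of day 2 and above 0 on both of day 4. Cycs, the somatic cytochrome c itself, had 0.48 and -0.052 at day 2, 0.10 and 0.029 at day 4, and 0.52 and 0.63 at day 7. Cycs averaged 0.28 (SE 0.086, adjusted p = 0.0726) and was not called, with the 2 arrays of day 7 and the first of day 2 well above the others. Its 3 probes gave averages from 0.26 to 0.31.

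Complex IV, cytochrome c oxidase, was the most divided complex. With the brightest probe standing for a gene, it held the highest and the lowest average of all members, Cox6a1 and Cox6a2. Other kept probes of Ndufab1 and Ndufa1 averaged higher than Cox6a1, at 0.61 and 0.57. Of the 16 genes of complex IV 1 rose and 1 fell (6.25% each, against 9.68% and 3.4% of all genes). In the average 10 of its genes lay above 0 (62.5%, against 56.5% of all genes), against 30 of 34 in complex I and 16 of 17 in complex V. Its median was 0.054 and -0.13 at day 2, 0.056 and 0.46 at day 4, and 0.052 and 0.12 at day 7 (mean 0.10 ± 0.19, SD over 6 arrays). The second array of day 4 stood apart from the other 5, over which the mean was 0.031 ± 0.092 (SD over 5 arrays). Without the 3 muscle isoforms the mean was 0.17 ± 0.23 (SD over 6 arrays).

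Cox6a2 and Cox6a1 are isoforms of the same regulatory subunit, VIa, and lay on opposite sides of 0. Cox6a2, the muscle isoform, had -0.37 and -0.23 at day 2, -0.41 and -0.53 at day 4, and -0.51 and -0.72 at day 7. It was below 0 on 6 of 6 arrays and fell by 0.46 in the average on the log2 scale (SE 0.069, fold 0.725, adjusted p = 0.0154), though it stood at 0.41 under median centring, where the median of all genes was 0.28. At day 7 it fell by 0.61 (SE 0.12, fold 0.653, adjusted p = 0.0486), a call that is lost when any 1 array is left out (adjusted p = 0.0628 to 0.243). Cox6a1, the isoform of most tissues, had 0.56 and 0.24 at day 2, 0.41 and 0.72 at day 4, and 0.48 and 0.51 at day 7. It was above 0 on 6 of 6 arrays and averaged 0.49 (SE 0.079, fold 1.4, adjusted p = 0.0178), the highest of the members on their brightest probes. On the scale of normalized log2 intensity Cox6a2 averaged 14.1 ± 0.35 in cyclosporin A samples and 14.5 ± 0.23 in ethanol samples, and Cox6a1 17.1 ± 0.097 in cyclosporin A samples and 16.6 ± 0.072 in ethanol samples (SD, n = 6). The channel ranges of Cox6a1 did not overlap, while those of Cox6a2 did. Both channels were rebuilt from the ratio and a mean intensity given the same distribution on all arrays, so they add little to the ratios. The share of all genes without overlap was not counted.

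The difference Cox6a2 minus Cox6a1 was -0.94 and -0.47 at day 2, -0.82 and -1.26 at day 4, and -0.99 and -1.23 at day 7. It averaged -0.95 ± 0.29 (SD, n = 6) and was below 0 on 6 of 6 arrays. The exact two-sided sign-flip permutation test gave p = 0.03125, the smallest that 6 arrays allow, and 0.09375 after Benjamini-Hochberg adjustment over 3 pairs, which misses the threshold. The mean was -0.87 on the slide of days 2 and 4 and -1.11 on that of day 7.

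The other 2 pairs did not separate on all arrays after loess. Cox7a1, the muscle isoform of subunit VIIa, had -0.047 and -0.36 at day 2, -0.25 and -0.18 at day 4, and 0.040 and -0.42 at day 7, averaging -0.20 (SE 0.087, adjusted p = 0.16). Its counterpart Cox7a2 had 0.039 and -0.13 at day 2, -0.061 and 0.82 at day 4, and -0.61 and 0.26 at day 7, averaging 0.053 (SE 0.15, adjusted p = 0.839). The other kept probe of Cox7a2 had 0.18 and -0.057 at day 2, 0.12 and 0.92 at day 4, and -0.35 and 0.44 at day 7. That probe averaged 0.21 (adjusted p = 0.346 when each probe was tested alone). The size of the difference within this pair thus depends on the probe, and the brightest is used below. Cox7a1 was below 0 on 5 of 6 arrays, while Cox7a2 spread widely on the second array of day 4 and the first of day 7. The difference Cox7a1 minus Cox7a2 averaged -0.26 ± 0.56 (SD, n = 6), was below 0 on 5 of 6 arrays and had an exact p of 0.28125 (adjusted p = 0.3125). Without the first array of day 7 it averaged -0.44, and without the second of day 4 -0.11. On processed signals and on deposited ratios it was -0.41 and passed the test (exact permutation test, adjusted p = 0.04688).

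Cox8b, the muscle isoform of subunit VIII, had -0.035 and -0.042 at day 2, -0.13 and 0.42 at day 4, and -0.96 and 0.066 at day 7, averaging -0.11 (SE 0.14, adjusted p = 0.625). Its average rests on the first array of day 7, without which it was 0.058. Its counterpart Cox8a had -0.047 and -0.19 at day 2, 0.13 and 0.60 at day 4, and -0.21 and 0.039 at day 7, averaging 0.052 (SE 0.086, adjusted p = 0.71). Both arrays of day 2 were below 0 and both of day 4 above 0 for Cox8a. The difference Cox8b minus Cox8a averaged -0.17 ± 0.32 (SD, n = 6), was below 0 on 3 of 6 arrays and had an exact p of 0.3125 (adjusted p = 0.3125). Without the first array of day 7 it averaged -0.049.

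**Figure D3:**
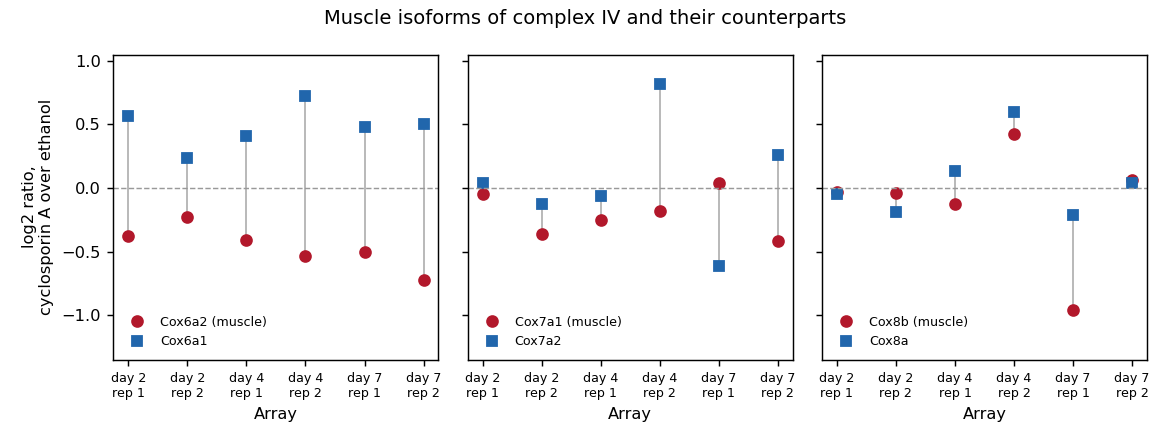
Each panel gives the log2 ratio of cyclosporin A over ethanol (vertical axis) of a muscle isoform (red circles) and its counterpart (blue squares) on the 6 arrays (horizontal axis), with grey lines joining both genes of an array. Cox6a2 lies below Cox6a1 on 6 of 6 arrays, Cox7a1 below Cox7a2 on 5 and Cox8b below Cox8a on 3.

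As a group the muscle isoforms lay below the other members on every array. The median of Cox6a2, Cox7a1 and Cox8b minus the median of the other 83 members was -0.23 and -0.25 at day 2, -0.40 and -0.48 at day 4, and -0.64 and -0.66 at day 7 (mean -0.45 ± 0.19, SD over 6 arrays). The 2 arrays of a day lay close together in this difference, and the days did not overlap. With days 2 and 4 on 1 slide and day 7 on another, this order was not tested. The isoform median came from Cox6a2 on the second array of day 2 and the first of day 7, and from Cox7a1 otherwise. At day 7 the arrays of Cox7a1 (0.040 and -0.42) and Cox8b (-0.96 and 0.066) stood on either side of 0. Means at days 2, 4 and 7 were -0.30, -0.47 and -0.61 for Cox6a2. They were -0.20, -0.22 and -0.19 for Cox7a1 and -0.038, 0.15 and -0.45 for Cox8b. The means thus fell from day to day for Cox6a2 alone. Limma called no difference between days for Cox6a2 (adjusted p = 0.882 to 0.999). On the second array of day 4 Cox8b (0.42) lay above the median of the other members (0.30). The difference of the medians stayed below 0 under all alternatives run, from -0.34 on the software's processed signals to -0.49 without the first array of day 2.

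Markers of skeletal muscle, which lies under the skin and can be taken with it, moved the same way. Of 24 tested markers 9 fell (37.5%, against 3.4% of all genes) and 0 rose in the average, at a median of -0.41 (0.53 under median centring). With 1 array left out 0 to 7 were called lower, 0 of them without the second array of day 4, 3 without the first of day 2 or the second of day 7, and 4 and 5 without the first of day 7 and of day 4. The median was -0.23 without the second array of day 7, and processed signals called 2. The markers that fell were the structural genes Tpm2, Actn3, Des, Ttn, Actn2 and Myl1, the creatine kinase Ckm, and the calcium-handling genes Ryr1 and Casq1, from -0.93 (Tpm2) to -0.45 (Myl1). The marker median was -0.36 and 0.069 at day 2, -0.31 and -0.76 at day 4, and -0.22 and -0.77 at day 7. Each marker exceeded background on some arrays, though Myh7 on only 4 cyclosporin A and 2 ethanol arrays. The summed signal of 23 markers was 561000 to 1030000 in cyclosporin A samples and 797000 to 1260000 in ethanol samples, ranges that overlap. On the second array of day 2 the marker median was above 0, while Cox6a2 and the group of muscle isoforms were below 0. The part of muscle content in the ratios of Cox6a2, Cox7a1 and Cox8b was not tested.

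Complex V, the ATP synthase, had 3 of 17 genes called higher (17.6%, against 9.68% of all genes) and 0 lower in the average, with 16 of 17 above 0. The complex had 2 called higher without Atp5b, 1 with the mean of all kept probes and 0 to 1 with 1 array left out. Its median was 0.22 and 0.026 at day 2, 0.20 and 0.31 at day 4, and 0.086 and 0.28 at day 7 (mean 0.19 ± 0.11, SD over 6 arrays). Atp5e, the epsilon subunit of the central stalk, had 0.59 and 0.11 at day 2, 0.20 and 0.55 at day 4, and 0.53 and 0.28 at day 7, averaging 0.38 (SE 0.094, fold 1.3, adjusted p = 0.046). Atp5h, subunit d of the peripheral stalk, had 0.28 and 0.087 at day 2, 0.34 and 0.22 at day 4, and 0.45 and 0.34 at day 7, averaging 0.29 (SE 0.067, fold 1.22, adjusted p = 0.0387). On these probes both genes were above 0 on 6 of 6 arrays. The other kept probe of Atp5h averaged 0.14, lay below 0 on the second array of day 2 (-0.026) and was not called (adjusted p = 0.19 when each probe was tested alone).

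Atp5b, the catalytic beta subunit, had 0.13 and 0.40 at day 2, 0.20 and 0.046 at day 4, and 0.62 and 0.39 at day 7 on its brightest probe, averaging 0.30 (SE 0.074, fold 1.23, adjusted p = 0.0464). Its other 2 kept probes averaged -0.24 and -0.34 (adjusted p = 0.199 and 0.136 when each probe was tested alone), and the mean of the 3 was -0.092, so no direction can be given for Atp5b as a gene. Atp5a1, the alpha subunit that pairs with beta, had the lowest average of the complex, -0.053 (SE 0.079, adjusted p = 0.682), from -0.16 and 0.026 at day 2, 0.066 and -0.17 at day 4, and -0.21 and 0.13 at day 7. Over all members, 17 genes had several kept probes, and in 4 of them (Atp5b, Atp5g2, Ndufa7 and Ndufv3) the probes differed in sign. Calls in the average also depended on the probe. When each probe was tested alone, another kept probe each of Ndufa1 (0.57), Ndufa12 (0.42), Ndufc1 (0.45) and Cycs (0.31) was called. The brightest probes of these genes were not. Conversely, the other kept probes of the called genes Atp5b, Atp5h, Ndufv3 and Uqcrh were not called.

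**Figure D4:**
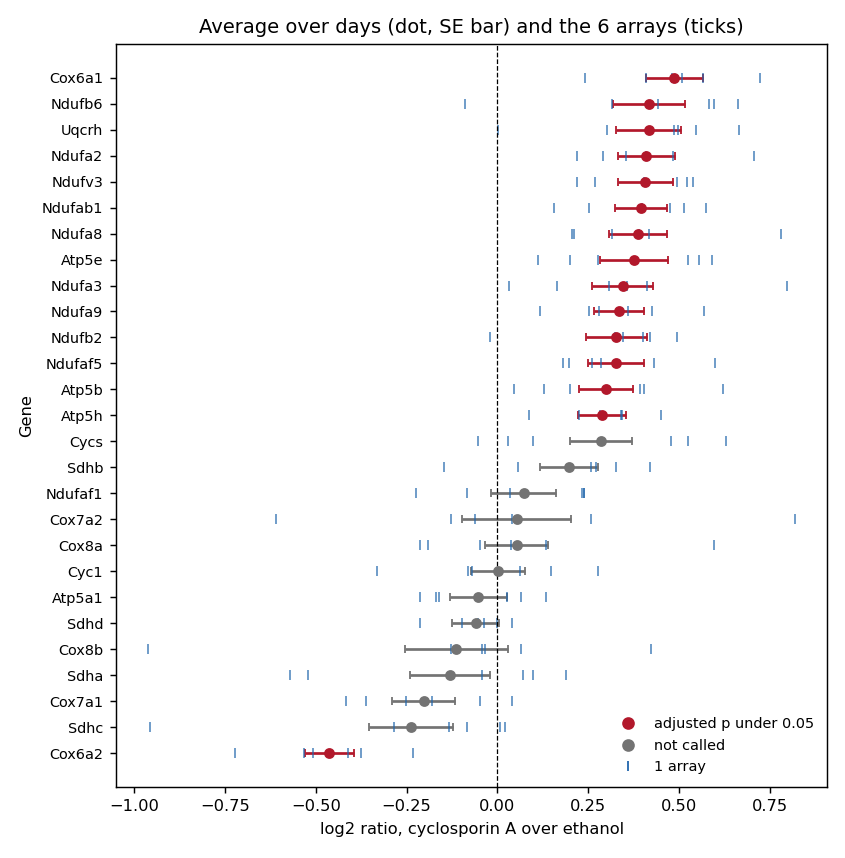
Dots with bars are the average log2 ratio over days with its SE (horizontal axis) for the 27 genes named with values (vertical axis), red where called, and blue ticks are the 6 arrays. The 14 genes called higher lie between 0.29 and 0.49 (Atp5b and Ndufv3 on their brightest probe alone), and Cox6a2, the gene that fell, at -0.46 (0.41 under median centring).

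Other mitochondrial gene lists did not all share the position of the respiratory chain. Of 76 mitochondrial ribosomal protein genes 16 rose (21.1%, against 9.68% of all genes) and 0 fell, at a median average of 0.19, close to the 0.19 of the respiratory chain genes, with Mrpl16 at 0.52, Mrpl13 at 0.45 and Mrps33 at 0.45. With 1 array left out 0 to 7 of these were called, 0 without either array of day 4 or the second of day 7 and 1 without the first of day 2 or of day 7, and processed signals called 2. Of 84 cytosolic ribosomal protein genes 33 rose (39.3%) and 0 fell, at a median of 0.24. With 1 array left out 0 to 20 were called, 0 without the second array of day 4, 7 without the first of day 4, 11 without either of day 7, 15 and 20 without the first and second of day 2, and processed signals called 4. Of 31 assembly factors outside the naming rule 3 rose, the same share as over all genes (9.68%), at a median of 0.098, and 0 to 2 were called with 1 array left out. These were Coa7 at 0.46 and the complex III factor Ttc19 at 0.42, with the copper chaperone of complex IV, Sco1, at 0.31.

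Citric acid cycle, fatty acid oxidation, biogenesis, and carrier and outer membrane genes lay nearer to 0. The shares called higher were 5.88%, 0%, 7.69% and 7.14% in this order, each below the 9.68% of all genes. The single calls of the biogenesis and carrier lists were lost with any 1 array left out. Those of the citric acid cycle and fatty acid oxidation were lost with some arrays left out. The 1 lower call in fatty acid oxidation is 5.88%, against 3.4% of all genes. The citric acid cycle had a median of 0.014 over 17 genes with 1 higher, the malate dehydrogenase Mdh2 at 0.36. Mitochondrial fatty acid oxidation had a median of -0.028 over 17 genes with 1 lower, the medium-chain acyl-CoA dehydrogenase Acadm at -0.37. Regulators of mitochondrial biogenesis had a median of -0.033 over 13 genes with 1 higher, the mitochondrial rRNA methyltransferase Tfb1m at 0.34. Carriers and outer membrane proteins had a median of 0.0098 over 14 genes with 1 higher, the import receptor Tomm22 at 0.35.

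Glycolysis went the other way, with 3 of 17 genes lower and 0 higher at a median of -0.15 (0.51 under median centring). These are 17.6% of the list, against 3.4% of all genes called lower, and 0 were called without either array of day 4 or of day 7 and on processed signals, 1 without the first array of day 2 and 2 without the second. The genes that fell were the phosphoglycerate mutase Pgam2 at -0.49, which is the muscle form, the pyruvate kinase Pkm at -0.45 and the triose phosphate isomerase Tpi1 at -0.35. Among cell type markers the adipocyte list had 1 of 12 higher (8.33%, against 9.68% of all genes), the fatty acid binding protein Fabp4 at 0.54, at a median of 0.031. The brown adipocyte list had 1 of 5 tested higher (20%, against 9.68% of all genes), the deiodinase Dio2 at 0.79. With 1 array left out 0 to 2 of this list were called higher. The list median was -0.059, with 2 of 5 above 0 in the average. The defining marker of brown adipocytes, Ucp1, was not well above background on any array. The 4 epidermal keratins had 0 calls, from -0.21 (Krt5) to 0.33 (Krt10). No list was tested as a set.

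The level at which all members sit depends on how the arrays are normalized, and without loess the ratio climbs with signal. Centring each array on its median, without loess, gave a median average of 0.97 for the members, against 0.28 for all genes, and called 84 of 86 members higher and 0 lower (97.7%), against 59.8% of all genes. Under that setting Cox6a2 averaged 0.41, Sdha 0.44 and the skeletal muscle markers a median of 0.53, so the direction against ethanol differs between both settings for these. The muscle isoforms stayed below the other members (-0.41), and Cox6a2 below Cox6a1 (-1.20). Glycolysis genes, with a median log2 intensity of 13.6 like that of the members, had a median of 0.51 under median centring. On the signals processed by the scanner software 0 members were called, against 5.23% of all genes, at a median of 0.16.

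**Figure D5:**
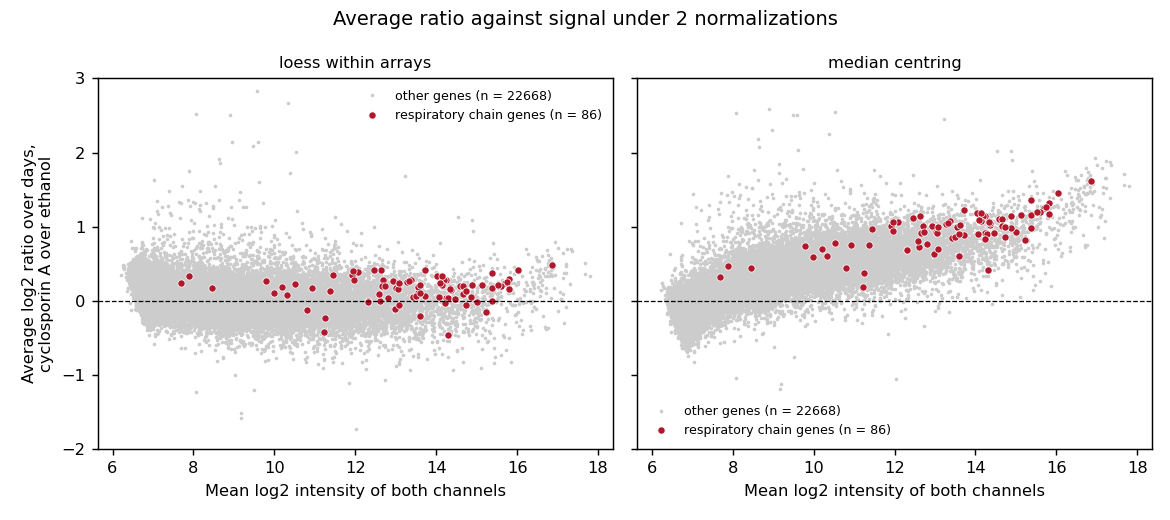
Each point is a gene, with its mean log2 intensity of both channels (horizontal axis) and its average log2 ratio of cyclosporin A over ethanol (vertical axis), under loess (left) and under median centring alone (right), with the 86 respiratory chain genes in red. Under median centring the ratio climbs with intensity for all genes and the members have a median of 0.97, while under loess it is 0.19.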

How the data were processed

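Scanner files of 6 dual-colour arrays hold median spot intensity and local background per channel and processed intensity, and per the submitters' processing notes the software was Agilent Feature Extraction 9.1. The deposited log10 ratio of Cy5 over Cy3 comes from the same software, per the file headers. The processed intensity is background-subtracted and dye-normalized, per the file headers. From the deposited median intensities, normexp (offset 50) and loess within arrays gave log2 ratios in limma 3.58.1 (R 4.3.3, with the package data.table at version 1.17.8). Figures were drawn with matplotlib 3.10.9 in Python 3.11.15. Control spots (1639 of 45018 per array) had weight 0, and 15 to 126 outlier spots per array, as marked by the scanner software, were dropped. Medians were 134.5 to 187 in the Cy5 channel and 203 to 277 in the Cy3 channel, and the number of arrays limits the precision.

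Spots of a probe were averaged. A probe was kept (27938 of 41174) where at least 1 day had both arrays well above background in Cy5 or Cy3. Accessions gave RefSeq symbols for 22951 probes and synonyms for another 57, and the 18166 probes without a symbol stood alone. The brightest probe stood for a gene. One mean per day was fitted (3 residual and 3.77 prior degrees of freedom). A missing value on 1 array was left out of the fit (Atp5md, Ndufb7, Uqcr11, Ndufa6 and Ndufb11 among the members). Groups follow the titles.

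Named with values were the isoform pairs, complex II, Cycs, Cyc1, every called member and the highest and lowest average of each complex, except 1 gene that is not reported here. Other lists name called genes or examples. Members, lists, tests and motifs were chosen with earlier results of these data known. Alternatives were other background corrections, normalizations, signal columns, filters and probe rules, single arrays left out, a replicate block and single slides. Testing each probe alone was added later. The fit was tested on simulated data.

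Replicate numbers from the titles did not pair the samples across days: deviations from the day means correlated at 0.007 between days 2 and 4, -0.278 between days 2 and 7 and -0.022 between days 4 and 7.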

Additional observations from a re-analysis of the deposited data

Results flagged for a closer look

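For 3 named genes both arrays of day 4 lay on the other side of 0 from both arrays of day 2. Cox8a stood at 0.36 at day 4 and -0.12 at day 2, a difference of 0.48. Sdha stood at -0.31 at day 4 and 0.13 at day 2 on its brightest probe, a difference of -0.44. Its other kept probe had 0.018 and -0.36 at day 2, so this change of sign rests on the probe. Cyc1 stood at 0.17 at day 4 and -0.21 at day 2, a difference of 0.38. In limma's test of the difference between days each had an adjusted p of 0.999 over all genes, so none was called. With 2 arrays per day this does not show that the days are alike. Days held 2 arrays each, too few for a test of single outlying samples.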

How the results depend on the processing

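The number of members called in the average was 15, and it was 84 under median centring, 0 on processed signals, 1 on the deposited ratios, 8 with the strict filter on dim probes and 0 to 9 with 1 array left out. With the replicate number as a block, which does not pair these samples, it was 4 (3 higher and 1 lower, all 4 among the 15), with 329 genes called at day 7, 0 at day 4 and 0 members at day 7. The other settings called 12 to 19 members. The day 7 call of Cox6a2 was lost, leaving 0 members called, with normexp without offset, subtracted background, scale normalization, processed signals, deposited ratios, the strict filter, and on the slide of day 7 alone. The mean of all probes called 2 members at day 7, and 0 were called there with any 1 array left out. Median centring called 78, 77 and 65 members at days 2, 4 and 7, with array medians of 0.94, 1.02 and 0.88. Over all genes it called 8703, 5580 and 4970, against 0, 1 and 681. Genes called at day 4 were 65 with normexp without offset, 0 with subtracted background, processed signals, no filter, the strict filter and on the slide of days 2 and 4 alone, and 0 to 4 with 1 array left out. Genes called at day 2 were 0 to 1 with 1 array left out. Genes called at day 7 were 319 with scale normalization, 221 on processed signals, 287 on deposited ratios, 368 with the strict filter, 447 on the slide of day 7 alone, and 147 to 689 with 1 array left out.

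Under median centring the complexes stood at 0.96 (I), 0.54 (assembly factors), 0.59 (II, from below 0), 1.03 (III), 0.90 (IV) and 1.06 (V), and averages turned above 0 for Cox6a2 (0.41, and 0.16 at day 7), Cox7a1 (0.60), Cox8b (0.64), Sdha (0.44), Sdhc (0.37), Sdhd (0.70) and Atp5a1 (0.86). The median of all genes was 0.28 there. On processed signals and on deposited ratios Cox6a2 minus Cox6a1 was -0.77 and Cox7a1 minus Cox7a2 -0.41 (adjusted p = 0.04688 for both, exact permutation test), and muscle isoforms minus the rest was -0.34. The last was -0.49 to -0.40 with 1 array left out. Signs also turned for averages near 0: Sdhd (0.037) and Atp5a1 (0.045) on processed signals and deposited ratios, Cyc1 under scale normalization (-0.0079), and Atp5b with the mean of all probes (-0.092). With 1 array left out, averages spanned -0.28 to 0.058 for Cox8b, -0.094 to 0.20 for Cox7a2, -0.025 to 0.13 for Cox8a, -0.041 to 0.043 for Cyc1, -0.0046 to 0.15 for Ndufaf1 and -0.11 to 0.0049 for Atp5a1. The causes were not tested. Of the 86 members, 85 were well above background on all arrays in both channels.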
